A study of Mus musculus with 14 samples.

Results

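Acetylation of lysine 9 of histone H3 (H3K9ac) is described here at 6459 narrow regions, each at an end of a single protein-coding gene and each with a peak in all 12 ChIP-seq libraries of the series. The regions were chosen from the peak lists by a rule. Overlapping peaks of the 12 libraries were merged into 57979 regions, of which 12375 had a peak in every library. Of these, 6459 (52.2%) were less than 6000 bp wide after merging and overlapped 1 kb on either side of an end of exactly 1 protein-coding gene of mm10. They make up 11.1% of all merged regions and lie at 6373 genes, 29.1% of the 21900 protein-coding genes in the annotation, with 85 genes having more than 1 such region. Presence in every library, width and place chose the regions, so these are given as description without a test.

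All libraries came from regenerating liver of male C57BL6/J mice aged 2 to 3 months, taken 12 h after partial hepatectomy, the surgical removal of part of the liver, and immunoprecipitated with an antibody to H3K9ac. No unoperated liver is among them, and no transgene or deletion is named. Titles divide the libraries into 6 of d22 and 6 of pbs, but titles and treatment labels disagree. The d22 libraries are labelled as vehicle (diluted phosphate-buffered saline) and the pbs libraries, like both pooled inputs, as 22.5% dextrose. Names here follow the titles, all differences are d22 minus pbs, and no direction is assigned to dextrose or vehicle. Whether each library is a different animal is not stated, so a p-value covers the spread among these libraries only, part of which may be technical. Liver is a mixture of cells, and a change of the mark per cell and a change in the share of a cell type cannot be told apart.

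Acetylation of H3K9 is written by acetyltransferases such as GCN5 and PCAF and removed by histone deacetylases, and it neutralises the charge of the histone tail. It sits on the nucleosomes that flank the start of active genes, most strongly on the first nucleosomes downstream of the start, while the start itself is depleted of nucleosomes. Narrow peaks of this kind are typical of genes used by most cells, whose starts often lie in CpG islands, whereas broad acetylated domains are known at genes that define a cell type.

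Sequences upstream of the start illustrate the range of the group. A gene start with its upstream sequence was given in the RefSeq promoter table (GRCm38.p6, the coordinates of mm10) inside 4873 of the 6459 regions. Shown are the 250 bases before the start, 5′ to 3′ along the gene. Pklr, Cyp2c70, Chac1 and Rgs16 have regions with more tags in d22, Fabp1 and Acaa1b have regions with fewer, and Mospd3 and Zfp335 are among the regions with the most even tags. Capitals mark matches, on either strand, to the motifs searched: TATAAA (the TATA box), CACGTG (the E-box), CACGNG and CNCGTG with 5 free bases between them (the carbohydrate response element), AGGNCA repeated after 1 free base (DR1, a nuclear receptor site), TGATGNAA (the amino acid response element), TGACGTCA (the cyclic AMP response element), CCGGAAG (ETS), GCGC and TGCGC with 1 free base between them (NRF1), CAAAGTCCA (a core of HNF4 sites), TGTTTAC (FoxO), AAGATG followed by GCGG (YY1), and GTTAAT and ATTAAC with 1 free base between them (HNF1). The GC box GGGCGG and CCAAT were counted but not marked. A match is a string of letters and not evidence of binding.
Pklr (chr3:89136373-89136622, + strand): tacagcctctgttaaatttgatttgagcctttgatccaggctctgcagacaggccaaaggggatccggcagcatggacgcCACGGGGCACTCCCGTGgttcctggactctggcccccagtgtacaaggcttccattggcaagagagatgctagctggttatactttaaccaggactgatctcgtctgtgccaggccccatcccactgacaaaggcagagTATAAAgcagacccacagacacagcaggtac
Fabp1 (chr6:71199629-71199878, + strand): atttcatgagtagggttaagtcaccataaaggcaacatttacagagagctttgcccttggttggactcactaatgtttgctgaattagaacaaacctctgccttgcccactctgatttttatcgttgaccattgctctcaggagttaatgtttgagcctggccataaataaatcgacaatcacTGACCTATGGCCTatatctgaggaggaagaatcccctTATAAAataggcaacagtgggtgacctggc
Cyp2c70 (chr19:40187287-40187536, - strand): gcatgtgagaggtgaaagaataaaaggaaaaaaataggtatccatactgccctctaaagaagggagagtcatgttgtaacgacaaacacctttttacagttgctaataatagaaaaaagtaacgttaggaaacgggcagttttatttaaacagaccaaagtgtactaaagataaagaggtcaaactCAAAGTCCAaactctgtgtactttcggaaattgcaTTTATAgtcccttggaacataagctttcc
Chac1 (chr2:119350992-119351241, + strand): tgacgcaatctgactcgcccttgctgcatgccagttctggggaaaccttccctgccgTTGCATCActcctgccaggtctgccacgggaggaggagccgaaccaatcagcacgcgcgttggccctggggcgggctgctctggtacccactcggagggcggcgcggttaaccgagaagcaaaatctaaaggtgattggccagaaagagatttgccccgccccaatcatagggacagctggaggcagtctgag
Rgs16 (chr1:153740103-153740352, + strand): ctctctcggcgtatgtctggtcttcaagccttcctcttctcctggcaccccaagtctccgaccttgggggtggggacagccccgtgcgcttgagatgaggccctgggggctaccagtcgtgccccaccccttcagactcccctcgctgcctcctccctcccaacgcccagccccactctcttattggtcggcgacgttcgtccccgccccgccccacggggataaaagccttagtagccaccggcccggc
Acaa1b (chr9:119157094-119157343, - strand): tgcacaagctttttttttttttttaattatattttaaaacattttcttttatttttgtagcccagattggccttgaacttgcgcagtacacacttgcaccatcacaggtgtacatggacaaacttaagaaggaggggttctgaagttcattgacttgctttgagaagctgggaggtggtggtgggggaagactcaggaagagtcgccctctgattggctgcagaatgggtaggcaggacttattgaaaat
Mospd3 (chr5:137600709-137600958, - strand): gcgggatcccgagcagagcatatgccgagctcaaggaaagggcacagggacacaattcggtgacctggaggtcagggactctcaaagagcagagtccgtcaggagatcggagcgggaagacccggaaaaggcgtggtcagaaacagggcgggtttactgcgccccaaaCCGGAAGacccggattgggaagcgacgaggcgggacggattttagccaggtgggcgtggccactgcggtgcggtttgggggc
Zfp335 (chr2:164911751-164912000, - strand): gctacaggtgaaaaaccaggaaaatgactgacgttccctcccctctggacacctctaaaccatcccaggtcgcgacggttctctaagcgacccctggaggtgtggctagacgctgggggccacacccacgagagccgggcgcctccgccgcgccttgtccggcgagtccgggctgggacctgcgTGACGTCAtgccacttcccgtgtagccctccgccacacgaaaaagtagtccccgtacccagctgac

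Counted from the start, where -1 is the base just before it, the carbohydrate response element match of Pklr (liver pyruvate kinase) begins at -170 and its TATA box at -31. Fabp1, the fatty acid binding protein of hepatocytes, has a DR1 match at -67 and a TATA box at -30. Cyp2c70, a P450 that makes muricholic acids, has an HNF4 core at -64. Its TATAAA match at -29 is on the opposite strand and reads TTTATA along the gene. Chac1, which breaks down glutathione, has an amino acid response element match at -193. Mospd3 (an ETS match at -82) and Zfp335 (a cyclic AMP response element match at -66), a zinc finger gene, have no TATA box match in this window, and Rgs16 and Acaa1b have none of the marked motifs.

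CpG dinucleotides were more frequent upstream of these starts than upstream of genes in general. The ratio of observed to expected CpG over the same 250 bases had a median of 0.769 in the 4873 promoters, against 0.53 over all 21263 starts of protein-coding genes and 0.211 over 7005 starts of genes with no peak at an end in any library. A ratio of at least 0.6 was found in 75.9% of the 4873, in 44.7% of all starts and in 15.0% of those without a peak. Broad regions at gene ends had a median of 0.676, and narrow regions that reach the ends of several genes 0.781. Of the motifs, the GC box was present in 64.6% of the 4873 promoters and 42.6% of all starts, the ETS motif in 15.2% and 8.98%, and the NRF1 motif in 9.42% and 5.18%. TATAAA went the other way, with 5.66% and 11.6%, and CCAAT was found in 36.2% and 35.4%. The rarer matches were the cyclic AMP response element in 3.1% and 1.92%, the E-box in 9.21% and 6.63%, YY1 in 0.616% and 0.39%, the amino acid response element in 1.68% and 3.18%, FoxO in 2.07% and 2.62%, the HNF4 core in 0.349% and 0.39%, DR1 in 0.205% and 0.32%, and the carbohydrate response element in 0.0821% and 0.0611%. HNF1 matched 1 start over all genes. This profile was not particular to single-gene regions. Of 2848 promoters at narrow regions that reach the ends of several genes, 58.1% had the GC box and 10.3% the NRF1 motif. YY1 matched 1.26% of them and TATAAA 4.74%, and the ETS motif was more frequent there than in the 4873. The E-box can lie within a carbohydrate response element match, and the GC box overlaps other GC-rich motifs. GC content differs between these sets, with a median of 60.8% in the 4873 promoters, 55.6% over all starts and 47.2% where there was no peak, and its part in the motif shares was not tested.

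The regions were between 856 and 5994 bp wide, with a median of 2568 bp and quartiles of 1962 and 3402 bp. Among the narrowest were those at B9d1 (856 bp), which encodes a protein of the ciliary transition zone, at Mdc1 (886 bp), a mediator of the DNA damage response, and at Ypel5 (892 bp). Just inside the width limit were Cfap126 (5994 bp) and Srrm1 (5993 bp), a splicing factor. Just outside it were Dap (6000 bp), Hmgcs1 (6011 bp) and Pear1 (6017 bp). Their mean tags overlapped across the limit, at 106 and 130 CPM inside and 226, 124 and 70.0 CPM outside. CPM are the usual depth-scaled counts, here relative to the tags of the same library in the 12375 shared regions with TMM scaling, and a mean is over 12 libraries unless stated.

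Tags in a region had a median of 61.2 CPM, with quartiles of 39.4 and 91.1. Together the 6459 regions held 45.3% of the CPM and 43.5% of the width of the shared regions. The most tags were found at Kmt2e, a SET-domain protein of chromatin (chr5:23431496-23437472), with 358, 390 and 419 CPM as the lowest, median and highest d22 library and 358, 391 and 491 in pbs. Next came Ddx6, an RNA helicase of mRNA decay (mean 336 CPM), the immediate early transcription factor Jun (329), the actin crosslinker Actn4 (288), Irf2bpl (268) and the tight junction protein Cldn3 (264). None of these 6 passed the test of d22 minus pbs (edgeR adjusted p = 0.412 to 0.958). The fewest tags were at Trim68 (10.4 CPM), Yaf2, of Polycomb complexes (10.7), the Wnt ligand Wnt9a (11.5) and Zfp618 (11.7). Wider regions held more tags: across the 6459 regions, log2 width and log2 mean CPM had a Pearson r of 0.80. Regions share the libraries and a summed count grows with the called length, so this r is only a description.

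**Figure D1:**
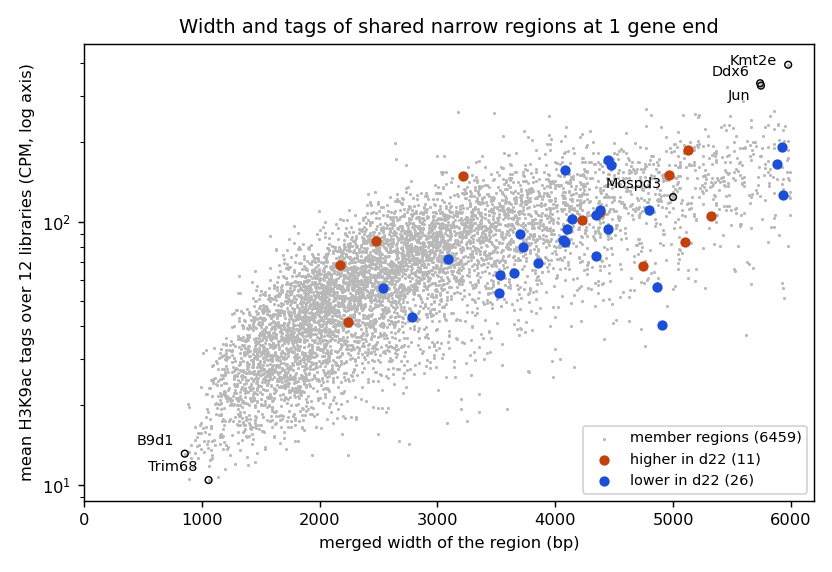
Mean tags over the 12 libraries (CPM, log axis) against merged width (bp) for the 6459 regions (grey points), with the 11 regions higher (orange) and 26 lower (blue) in d22. Circles mark regions named in the text: Kmt2e, Ddx6 and Jun are at the upper right and B9d1 and Trim68 at the lower left.

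Beside the other shared regions, these sat between the broad and the distal ones. The 1042 regions of 6000 bp or more, at a gene end or not, had a median of 210 CPM, and the 1768 narrow regions that reach ends of several genes had 78.6 CPM. The 1865 regions inside a gene and away from its ends had 39.1 CPM, and the 1241 away from coding genes had 33.4 CPM. Tags per kb of called peak, scaled to the depth of the library, had a median of 63.0 in the narrow single-gene regions, 67.6 in broad regions and 43.7 inside genes. The authors' fold enrichment over local background, as deposited, had medians of 31.8, 46.0 and 20.3 in the same order. The broad regions thus held more tags mainly over a greater width. In 1551 narrow single-gene regions (24.0%) every library had a single peak, and elsewhere some libraries split the region into several.

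Most summits lay a short way downstream of the start of the gene. The summit, the highest point of the peak with the most tags in each library, had a median over libraries of 252 bp downstream of the start (quartiles 160 and 400 bp) in the 4873 regions with a start inside. It lay 100 to 250 bp downstream in 1712 regions (35.1%) and 250 to 500 bp downstream in 1732 (35.5%). Only 85 (1.74%) had it in the 100 bp before the start and 163 (3.34%) in the 100 bp after it. A further 363 (7.45%) had it 100 to 500 bp upstream.

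**Figure D2:**
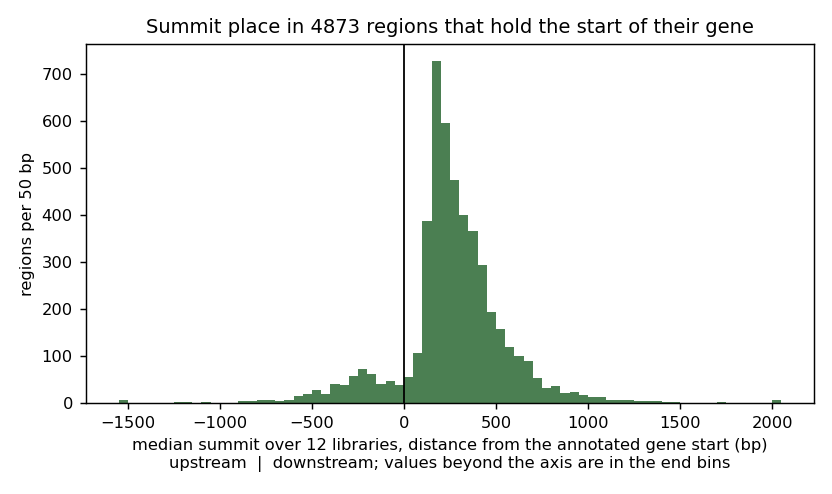
Number of regions per 50 bp by the median distance of the summit from the annotated start (bp, negative upstream), for 4873 regions. Most summits lie downstream of the start (median 252 bp), with fewer upstream.

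The summit was upstream in 534 regions (11.0%), with a median of -254 bp, and at or downstream of the start in 4339 (89.0%), with a median of 281 bp. Regions with an upstream summit reached a median of 1270 bp upstream and 1260 bp downstream of the start, while the others reached 818 and 1660 bp. An end of a noncoding gene lay within 1 kb of 121 (22.7%) of the former and 761 (17.5%) of the latter. Upstream summits included those of Igfbp2 (-171 bp), Dcaf11 (-181.5 bp), Tmem11 (-112 bp), Ep300, which encodes the acetyltransferase p300 (-673 bp), and Cdk6 (-1143 bp). The side was stable in most regions: 3339 (68.5%) had the summit downstream in all 12 libraries, 162 (3.32%) upstream in all 12, and 1371 (28.1%) on both sides. The standard deviation of the summit over the libraries had a median of 132 bp (quartiles 66.3 and 249 bp), which is of the order of the fragment length that the caller modelled, 119 to 186 bp. Between libraries, the median summit lay 231 to 290 bp downstream and the share of downstream summits was 85.1 to 88.3%.

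Of the other regions, 1290 were at genes with no start in the table, 176 lay at the start end with the annotated start just outside, 5 held both ends with the start outside, and 115 lay at the far end of the gene. The far-end regions had fewer tags (median 36.9 CPM against 63.1 CPM with a start inside) and varied more between libraries (median coefficient of variation, CV, 27.5% against 15.7%). An example is Irgm2, an interferon-inducible GTPase. Cdkn1b, which encodes the cell cycle inhibitor p27, had a region at each end, with 150 CPM at the start and 78.8 CPM at the far end.

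The share of genes with such a region differed widely between gene groups. Zinc finger genes named Zfp had one in 247 of 397 (62.2%), Mediator subunits in 19 of 30 (63.3%), aminoacyl-tRNA synthetases in 21 of 34 (61.8%), ubiquitin-conjugating enzymes and Usp proteases in 50 of 81 (61.7%), translation initiation factors in 34 of 56 (60.7%) and histone acetylation enzymes in 18 of 30 (60.0%). Over all protein-coding genes it was 29.1%. Genes of the G1 phase and DNA replication had one in 18 of 27 (66.7%), but with few tags, a median of 34.2 CPM. The tags also differed between other groups, with medians of, for example, 46.2 CPM at Zfp genes and 121 CPM at cytosolic ribosomal proteins (44 of 82 genes). The region with the most tags was that of Eif4a2 among initiation factors (214 CPM), of Hnrnpa3 among splicing factors (229 CPM) and of Ube2d3 among the ubiquitin enzymes (202 CPM).

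Some groups had many genes in other classes of region. Mitochondrial ribosomal protein genes had a narrow region of their own in 35 of 78 and one shared with another gene in 39, and respiratory chain genes in 34 and 39 of 82. Transcription factors of hepatocytes had a narrow region in 5 of 18, the bile acid receptor Nr1h4 among them (202 CPM), and a broad one in 14. Acute phase and clotting genes had 9 narrow and 15 broad of 27, and urea cycle and amino acid genes 9 and 12 of 22. These shares of narrow regions (33.3% and 40.9%), like those of bile acid genes (43.8%) and of gluconeogenesis and glycogen (7 of 14 genes), were above the 29.1% over all genes. Cytochromes P450 had a narrow region in 18 of 98, serpins in 7 of 63 and keratins in 2 of 109, and 1 of 1474 chemosensory receptor genes had one while 1468 had no peak in any library. The median CpG ratio was 0.169 at P450, 0.13 at serpin and 0.181 at acute phase and clotting regions, but 0.453 at bile acid, 0.615 at urea cycle and amino acid and 0.618 at gluconeogenesis regions, and it was 0.866 at initiation factors.

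**Figure D3:**
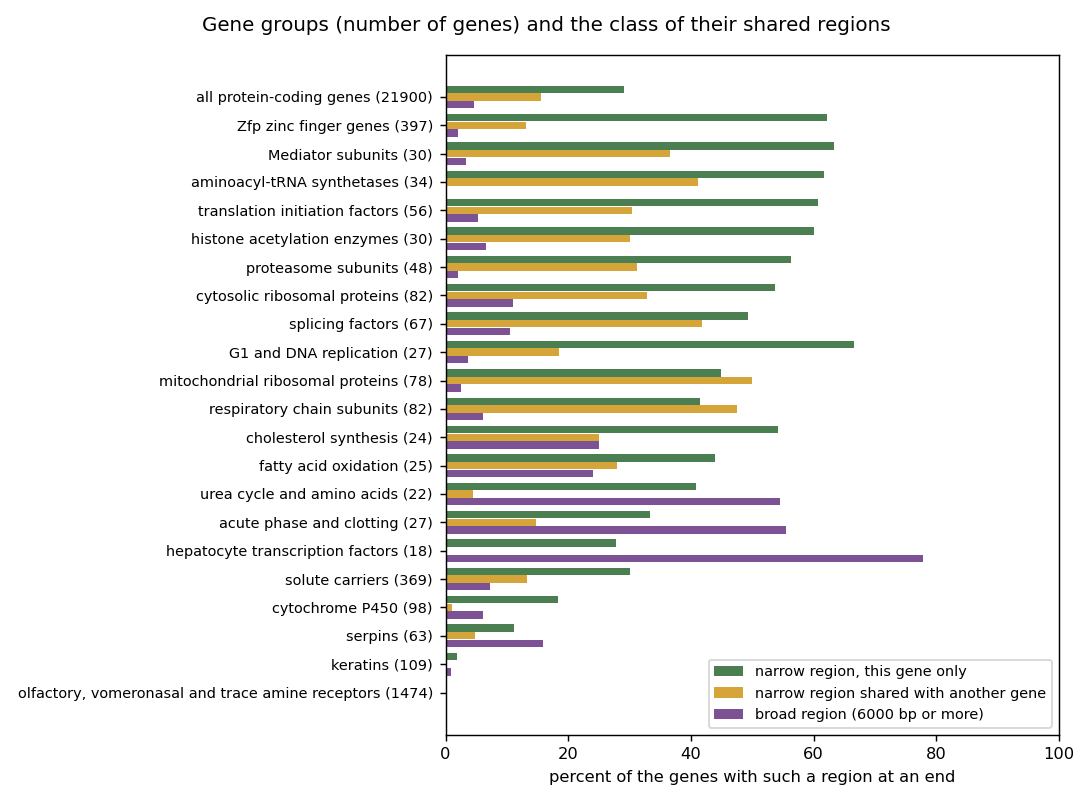
Percent of the genes of each group (number of genes in brackets) with a narrow region at that gene only (green), a narrow region at ends of several genes (yellow) and a broad region of 6000 bp or more (purple), each with a peak in all 12 libraries. The longest green bar is that of G1 and DNA replication genes, and hepatocyte transcription factors, acute phase genes and the urea cycle the longest purple ones.

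Defining markers of hepatocytes had shared regions, and few markers of other cells did. All 7 hepatocyte markers had a shared region, 3 of them narrow (Ttr, Hnf4a and Cps1) and 4 broad (Alb, Apoa1, Serpina1a and Fgb). None of 6 macrophage, 4 neutrophil, 6 lymphocyte, 5 stellate or 4 erythroid markers had a narrow region of its own, and the 4 neutrophil markers had no peak in any library. Peaks in at least 1 library were found at 4 of the 6 macrophage, 2 of the 6 lymphocyte, 5 of the 5 endothelial, 3 of the 5 stellate, 1 of the 4 cholangiocyte and 2 of the 4 erythroid markers. Cd68 and Cd79a had regions that also reach another gene. Of the endothelial markers 1 of 5 had a narrow region, Pecam1, at 20.9 CPM in the median d22 and 10.1 CPM in the median pbs library (log2 change 0.34, edgeR adjusted p = 0.791). Of the cholangiocyte markers 1 of 4 had one, Sox9, at 88.5 and 78.0 CPM (0.26, adjusted p = 0.569). No marker region of any class passed the test.

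Tags varied less between libraries here than in regions away from gene ends, as a description, but more than in the other 2 classes. The CV of CPM over the 12 libraries had a median of 16.1%, where counting error alone gives 9.03%, and the median was 25.6% in regions inside genes, whose counting error is 11.3%. In narrow regions at several genes it was 13.9%, with a counting error of 7.97%. Broad regions, with a counting error of 4.86%, also had a lower median CV than these regions. The most even region was that of Mospd3 (CV 3.94%), with 118, 126 and 130 CPM as lowest, median and highest in d22 and 115, 123 and 131 in pbs. Lrrk1 (4.32%), Zfp335 (4.59%) and Ppp1r12a (4.64%), a subunit of myosin phosphatase, followed. The largest CV was at Mtss2 (89.7%), Irgm2 (71.4%), Mlxipl (63.3%), which encodes the glucose-responsive factor ChREBP, and Kif2c (61.8%), a mitotic kinesin. In Mtss2, Irgm2 and Kif2c, library d22 4 stood apart at 78.7, 43.6 and 70.2 CPM. The next d22 library had 21.7, 19.9 and 31.3 CPM. The pbs libraries also varied, from 11.5 to 20.2, 5.62 to 16.0 and 16.4 to 26.6 CPM in that order. Mlxipl had 30.7, 49.2 and 99.6 CPM in d22 and 13.0, 24.0 and 32.6 in pbs, with only a small overlap of the groups (log2 change 1.13, edgeR adjusted p = 0.0948).

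By library, 488691 to 1286942 tags fell in the 6459 regions, from 6343891 to 13259411 tags in all, and they were 44.5 to 46.0% of the tags in shared regions. Called lengths had a median of 1600 to 2120 bp. Library d22 4 had the fewest tags, the longest modelled fragments (186 bp) and 44585 peaks in all, where the others had 26352 to 30780. All libraries of a title group were called against 1 pooled input of that group, so input and group cannot be told apart in called length, fold enrichment or tags. Median fold enrichment in the regions was 26.3 to 35.5 in d22 and 30.4 to 41.9 in pbs, and tags per kb, scaled to the depth of the library, were 54.2 to 71.7 and 59.8 to 79.8.

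Between d22 and pbs, tags differed in 37 of the 6459 regions (0.573%), 11 higher and 26 lower in d22, by edgeR's quasi-likelihood test with Benjamini-Hochberg adjusted p under 0.05 over all 12375 shared regions. Over those the share was 1.01% (125 regions), with 0.453% higher and 0.558% lower. It was 3.36% in broad regions, 1.82% in regions inside genes, 0.886% in those away from coding genes and 0.452% in narrow regions at several genes. Median tags of these classes, in the same order, were 210, 39.1, 33.4 and 78.6 CPM. These shares were not tested against each other, nor was the part that tags play in them. A further count is of regions in which the 6 d22 and 6 pbs libraries did not overlap in CPM: 64 regions (28 higher, 36 lower), or 0.991%, against 1.33% over all shared regions (0.59% higher, 0.743% lower). At unadjusted p under 0.05 there were 565 regions. That count is given without its share over all shared regions, and nothing is read from it. The median change was 0.01 on the log2 scale over the 6459 regions, and its median size was 0.107 against 0.118 over all shared regions.

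With library totals in place of TMM, 140 regions passed, 4 higher and 136 lower, and the median change was -0.212 over the regions and -0.220 over all shared regions. Over all shared regions that scaling called 3.67%, DESeq2 called 2.2% (87 of the 6459 regions), the fit with a replicate block 1.03%, a minimum of 50 tags 1.47%, the largest peak alone 0.242%, the libraries of 49 bp tags alone 0.315% and regions with 1 peak in every library 0.0%. The fit with 1 peak in every library covered only 1 of the 37 regions, and that with at least 50 tags 26. All 37 regions kept their sign under every alternative run on them, and 10 kept their call on leaving out each library in turn: Cyp2c70, Rgs16, Pklr, Slc30a10, Cbfa2t3, Acot2, Depp1, Igfbp2, Aldh3a2 and Ftcd. Without pbs 1, pbs 4 and pbs 6 together, the libraries of 48 bp tags and all in 1 title group, 7 of the 37 kept it (Cyp2c70, Rgs16, Acot2, Depp1, Abcc3, Aldh3a2 and Palmd), so that Pklr, Slc30a10, Cbfa2t3, Igfbp2 and Ftcd of those 10 lost it there (adjusted p = 0.0721, 0.192, 0.128, 0.13 and 0.117). Leaving out d22 1, 2, 3, 4, 5 or 6 kept the call of 25, 16, 24, 30, 25 and 13 of the 37, in that order. Leaving out pbs 1, 2, 3, 4, 5 or 6 kept 26, 21, 18, 17, 17 and 23. For the regions that lost it, the highest such p is given with the values as the highest leave-one-out p.

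Gains in d22 were largest at Cyp2c70, Rgs16 and Pklr. Pklr, the last step of glycolysis in liver (chr3:89135893-89140996), had 75.2, 103 and 194 CPM as lowest, median and highest d22 library and 39.0, 46.9 and 63.0 in pbs, so that every d22 library was above every pbs library. Its log2 change was 1.25 ± 0.20 (SE, n = 6 each; edgeR adjusted p = 0.00599). Rgs16, which switches off G protein signals (chr1:153739768-153745093), had 113, 146 and 183 CPM in d22 and 28.8, 59.3 and 86.6 in pbs, again without overlap (1.33 ± 0.22, adjusted p = 0.00626). At Cyp2c70 (chr19:40183352-40188092) d22 had 73.8, 97.8 and 133 CPM and pbs 17.6, 41.0 and 48.7 (1.37 ± 0.21, adjusted p = 0.00336). The groups were apart at all of these, and the pbs library farthest down at Cyp2c70 and at Rgs16 was pbs 6.

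Among targets of ATF4 and of endoplasmic reticulum stress, 2 of 13 regions rose, 0 fell and the list's median change was 0.23 against 0.01 over all 6459 regions. Over all 6459 regions 0.573% were called. The list was chosen with earlier results of these data known, and its median was not tested. Chac1 had 37.4, 54.0 and 81.6 CPM in d22 and 14.5, 28.2 and 35.5 in pbs, with no overlap (1.06 ± 0.21, edgeR adjusted p = 0.0213, 0.0551 without pbs 4). Ddit4, an inhibitor of mTORC1, had 199, 211 and 237 CPM in d22 and 134, 162 and 185 in pbs, which is a smaller change at a region with many tags (0.41 ± 0.09, adjusted p = 0.0392, highest leave-one-out p 0.114). Tars, threonyl-tRNA synthetase, was the only one of 21 tRNA synthetase regions to pass, at 115, 121 and 159 CPM in d22 and 67.5, 95.8 and 102 in pbs (0.54 ± 0.12, adjusted p = 0.0307, highest leave-one-out p 0.0755). The 21 had changes from -0.33 to 0.54 with a median of 0.00.

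The other regions higher in d22 had changes of 0.40 to 0.61. Slc30a10, the manganese exporter, had 79.3, 103 and 129 CPM in d22 and 57.4, 65.6 and 79.3 in pbs, with the groups just touching (0.61 ± 0.12, edgeR adjusted p = 0.0138). Pdhb, a subunit of pyruvate dehydrogenase, had 103, 113 and 141 CPM in d22 and 77.8, 82.8 and 99.1 in pbs, fully apart (0.47 ± 0.10, adjusted p = 0.0244, highest leave-one-out p 0.0598). Nfxl1, at 70.2, 78.3 and 89.2 against 52.9, 57.2 and 63.6 CPM, and Zfp622, a zinc finger gene, at 154, 160 and 206 against 117, 125 and 153, were also apart (0.44 and 0.40, highest leave-one-out p 0.102 and 0.119). Tcim overlapped between the groups, with 156, 180 and 196 CPM in d22 and 87.8, 121 and 167 in pbs (0.56, highest leave-one-out p 0.104). With library totals as the scaling these 5, Tars and Ddit4 were no longer called (changes of 0.18 to 0.39, edgeR adjusted p = 0.134 to 0.406), and Pklr, Rgs16, Cyp2c70 and Chac1 were the 4 higher regions called.

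Losses in d22 included 2 regions of the fatty acid oxidation list. Acaa1b, a peroxisomal thiolase (chr9:119153692-119157343), had 18.0, 37.3 and 66.8 CPM in d22 and 67.6, 89.6 and 105 in pbs, so that the groups just failed to meet (-1.14 ± 0.23, edgeR adjusted p = 0.0234, highest leave-one-out p 0.0658). Acot2, a mitochondrial acyl-CoA thioesterase (chr12:83987196-83989731), had 31.3, 36.0 and 49.4 CPM in d22 and 54.2, 74.0 and 94.0 in pbs, also apart (-0.98 ± 0.15, adjusted p = 0.00336). In that list 2 of 12 regions fell and 0 rose, where 0.573% of all 6459 regions were called. All 12 changes were negative, with a median of -0.27, where 3043 of all 6459 regions were negative. The list was chosen with earlier results of these data known, and its regions share the same libraries. Whether it differs from all regions was not tested. The region of Cpt2, which had the most tags of the list, had 131, 153 and 197 CPM in d22 and 137, 178 and 211 in pbs (-0.16, adjusted p = 0.665).

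Fabp1 (chr6:71199598-71204072), at 100, 118 and 173 CPM in d22 and 177, 198 and 227 in pbs, did not overlap either (-0.61 ± 0.12, edgeR adjusted p = 0.0192, highest leave-one-out p 0.0533). Aldh3a2, which oxidises fatty aldehydes, had 43.6, 49.8 and 71.7 CPM in d22 and 64.8, 86.9 and 109 in pbs (-0.76 ± 0.14, adjusted p = 0.0129). Its overlap came from d22 6 alone, since the next d22 library had 50.3 CPM. Pctp, which transfers phosphatidylcholine, had 38.4, 54.6 and 91.1 CPM against 90.3, 111 and 165 (-0.99, highest leave-one-out p 0.071), and Slc22a5, the carnitine transporter, 42.7, 65.0 and 82.7 against 82.0, 110 and 115 (-0.71, highest 0.0919). In both, the top d22 library just reached the lowest pbs library.

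Regions at 6 enzymes that act on amino acids or glyoxylate also fell, a grouping by known role made after the values were seen. Agxt, which detoxifies glyoxylate, had 12.7, 28.7 and 45.1 CPM in d22 and 46.5, 56.7 and 76.1 in pbs (-1.03 ± 0.21, edgeR adjusted p = 0.027, highest leave-one-out p 0.0782). Cth, which makes cysteine from cystathionine, had 35.4, 47.9 and 55.8 against 61.5, 74.0 and 103 CPM (-0.73 ± 0.15, adjusted p = 0.0244, highest 0.0705). Ftcd, of histidine breakdown, had 53.3, 63.7 and 77.9 against 82.5, 97.9 and 110 CPM (-0.59 ± 0.11, adjusted p = 0.0129). These 3 showed no overlap between the groups. The changes were also negative at Abat, GABA transaminase (-0.69), Pipox, pipecolic acid oxidase (-0.59), and Gcdh, of lysine breakdown (-0.40), of which Gcdh alone was without overlap, with highest leave-one-out p of 0.11, 0.108 and 0.116. In the list of urea cycle and amino acid genes 1 of 10 regions fell (Cth) and 0 rose, where 0.573% of all 6459 regions were called. The median of that list was -0.10, and Glul, glutamine synthetase, had 199 and 166 CPM in the median d22 and pbs library (0.25, edgeR adjusted p = 0.237).

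Other regions lower in d22 were those of Igfbp2, Depp1, Cbfa2t3, the transporter Abcc3 and 3 solute carriers. Igfbp2, which binds insulin-like growth factors (chr1:72823524-72827624), had 39.8, 65.2 and 94.2 CPM in d22 and 111, 118 and 136 in pbs, without overlap (-0.86 ± 0.16, edgeR adjusted p = 0.0114). Depp1, a FoxO target linked to autophagy (chr6:116649840-116654288), had 46.5, 63.9 and 81.5 CPM against 102, 123 and 140, the smallest p of the 37 (-0.90 ± 0.12, adjusted p = 0.0013). Cbfa2t3, a corepressor, had 21.1, 36.2 and 60.7 CPM against 62.4, 78.2 and 87.5 (-1.13 ± 0.20, adjusted p = 0.00982). Its summit lay 2135 bp downstream of the start. Abcc3, which exports bile acid and drug conjugates to blood, had 47.4, 69.8 and 99.5 CPM against 91.7, 123 and 176, with some overlap (-0.84, adjusted p = 0.0234, highest leave-one-out p 0.0608). The solute carriers Slc22a18 (-0.88) and Slc7a2, which imports cationic amino acids (-0.41), were without overlap and Slc16a5 (-0.86) was not, with highest leave-one-out p of 0.114, 0.136 and 0.0862. Of all 111 solute carrier regions 1 rose and 4 fell, with a median change of 0.03, where 0.573% of all 6459 regions were called.

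The remaining regions lower in d22 had changes of -0.36 to -0.61. Palmd had 103, 128 and 143 CPM in d22 and 148, 197 and 241 in pbs (-0.61, edgeR adjusted p = 0.0218, highest leave-one-out p 0.0632). Zfp395 fell by 0.52 on the log2 scale, Dcaf11, a substrate receptor of a ubiquitin ligase, by 0.48, Ccn1, a matrix protein and YAP target, by 0.48, and the scaffold Ajuba by 0.46. Eva1a, of autophagy, fell by 0.40 and the Golgi protein Golim4 by 0.36, the smallest change called. Of these 7, only Ccn1 overlapped between the groups, and their highest leave-one-out p were 0.0586 to 0.119. The rule for named genes covered the 11 higher and the 12 largest lower regions. The other 14, with changes of -0.71 to -0.36, are named after their values were seen.

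**Figure D4:**
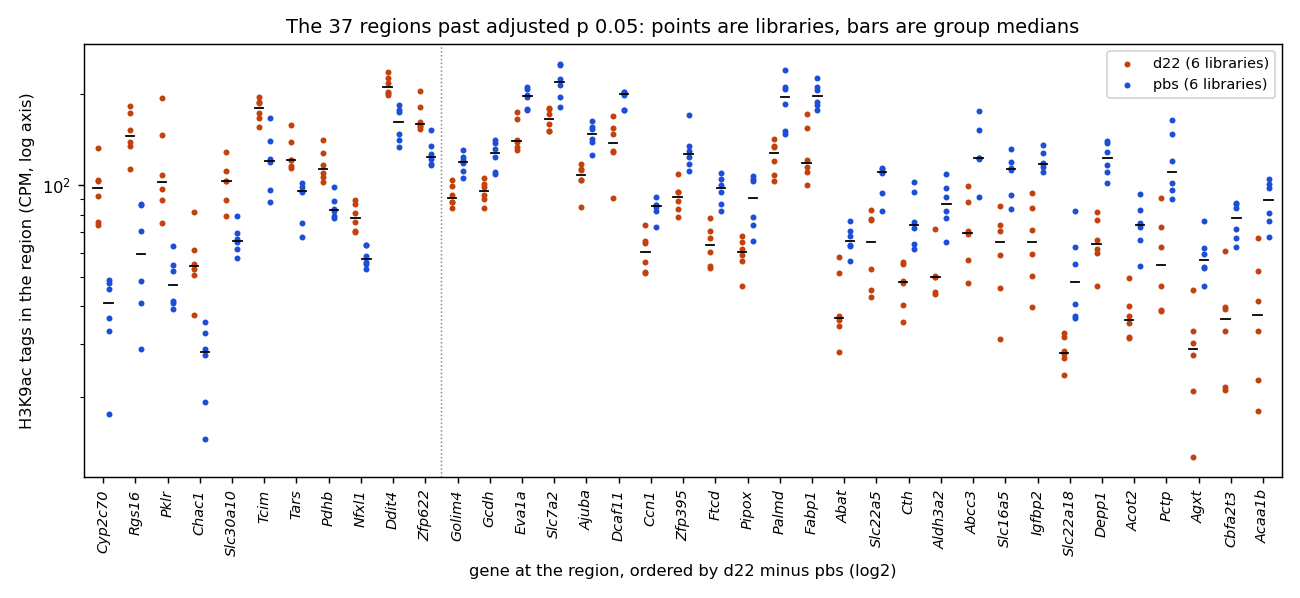
CPM (log axis) of each library at the 37 regions past adjusted p 0.05, 6 d22 libraries in orange and 6 pbs in blue, with group medians as bars, ordered by log2 change. Left of the dotted line are the 11 higher in d22 and right of it the 26 lower. In 27 of the 37 the points of the groups do not overlap, against 64 (0.991%) of all 6459 regions. The 37 were chosen by the difference in these same tags, so this separation is no separate support for the calls.

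Other metabolic lists had members that did not pass. These lists too were chosen with earlier results of these data known, their regions share the same libraries, and their medians were not tested. In fat synthesis 0 of 10 regions passed, 2 were negative and the median was 0.25. They included Acly, ATP citrate lyase, at 209 and 171 CPM in the median d22 and pbs library (0.30, edgeR adjusted p = 0.177), and Gpam, which starts glycerolipid synthesis, at 94.8 and 157 CPM (-0.60, adjusted p = 0.0621). In cholesterol synthesis all 13 changes were negative with a median of -0.25, and 0 passed by edgeR, the nearest being the regulator Srebf2 at 81.6 and 99.3 CPM with no overlap (-0.34, adjusted p = 0.075). Glycolysis had 1 of 6 higher (Pklr) and 5 negative, with Aldoa, aldolase, at 213 and 249 CPM (-0.27, adjusted p = 0.206). Gluconeogenesis had 0 of 7, with G6pc, glucose-6-phosphatase, at 162 and 168 CPM (-0.03). Saa1, an acute phase protein, had 77.6 and 30.9 CPM (1.09, adjusted p = 0.0546).

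With 0.573% of all 6459 regions called, nothing is read from the counts called in any gene list, above or in the following groups. Of 44 ribosomal protein, 34 respiratory chain, 27 proteasome, 36 initiation factor, 33 splicing factor, 19 Mediator and 18 histone acetylation regions 0 passed by edgeR, with medians of -0.06, -0.09, 0.00, 0.01, -0.01, 0.09 and 0.09. The respiratory chain subunit Cox7b came nearest, at 26.0 and 39.9 CPM with no overlap (-0.60, adjusted p = 0.0714). Of 250 Zfp regions 1 rose (Zfp622) and 1 fell (Zfp395). Of 19 G1 and DNA replication regions 0 passed, with Rrm2, the ribonucleotide reductase subunit, at 36.4 and 20.1 CPM (0.61, adjusted p = 0.274). Of 19 P450 regions 1 rose (Cyp2c70), and 13 of the 19 were negative with a median of -0.19.

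The promoters of regions lower in d22 held fewer CpG than the rest. Upstream of the 19 lower regions with a start inside, the median CpG ratio was 0.449, and 7 of 19 (36.8%) reached 0.6, against 7 of 10 (70.0%) of the higher regions and 75.9% of all 4873. Fabp1 (0.175), Acaa1b (0.195), Depp1 (0.126), Agxt (0.111) and Slc22a18 (0) are among the low ones, and Pklr (0.271) is one of the higher regions. Of the 1176 regions under 0.6, 15 were called (1.28%; 3 higher, 12 lower), and of the 3697 at or above it 14 (0.379%; 7 and 7). The former also varied more within the data, with a median CV of 18.4% against 15.0%, and had fewer tags, 51.4 against 66.8 CPM. The difference between these shares was not tested, nor was the part that tags play in it. Motif counts at the 10 higher and 19 lower promoters follow, with the share of all 4873 in brackets. The carbohydrate response element was at 1 (Pklr) and 0 (0.0821%), the amino acid response element at 2 and 0 (1.68%). DR1 was at 0 and 1 (Fabp1, 0.205%), the E-box at 0 and 4 (9.21%) and CCAAT at 7 and 8 (36.2%). The GC box was at 7 and 8 (64.6%), NRF1 at 2 and 1 (9.42%) and TATAAA at 2 and 3 (5.66%). ETS was at 1 and 1 (15.2%), the HNF4 core at 1 and 0 (0.349%) and FoxO at 0 and 1 (2.07%). Nothing is read from these small counts.

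Differences in called length went with those in tags, though none passed a test of its own. In all 37 regions the length difference had the sign of the tag difference, and tags per kb had it in 34, the exceptions being Pdhb, Aldh3a2 and Golim4. Apart from scaling, a tag count is the called length times the tags per kb. In regions chosen for their tag difference, a shared sign is therefore partly built in. In size these differences had a median of 0.61 in tags, 0.52 in length and 0.24 in tags per kb on the log2 scale. Pklr was called over 3466 bp in the median d22 and 1393 bp in the median pbs library (length change 1.11), with tags per kb nearly alike (0.05). Cyp2c70 had 3356 and 1837 bp (0.99 in length, 0.33 in tags per kb). Zfp622 was the opposite case, with 2780 and 2904 bp (0.02 in length, 0.30 in tags per kb), as were Slc30a10 (0.15 and 0.39) and Nfxl1 (0.07 and 0.29). Among the lower regions, Acaa1b had 1480 and 2868 bp (-1.01 in length, -0.36 in tags per kb), and Acot2 had 1376 and 1948 bp (-0.44 and -0.62). In d22, by these values, the tags of Pklr covered a longer stretch at a like density, and those of Zfp622 a like stretch at a higher density.

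**Figure D5:**
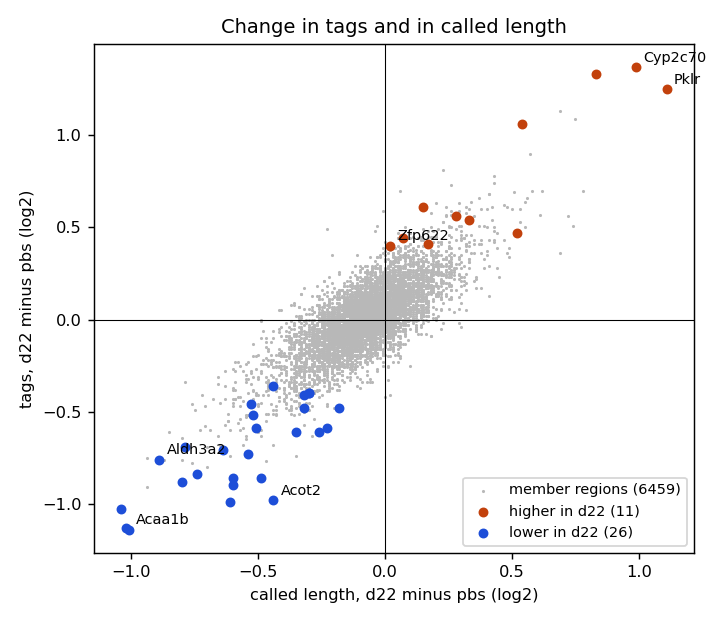
Log2 change in tags against log2 change in called length, d22 minus pbs, for the 6459 regions (grey) and the 37 past adjusted p 0.05 (orange higher, blue lower). The 37 lie in the upper right and lower left, with Pklr and Cyp2c70 far out on both axes and Zfp622 near 0 in length.

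No region passed when length, tags per kb or summit place was tested alone. By limma with Benjamini-Hochberg adjustment 0 of the 6459 regions passed for called length (339 at unadjusted p under 0.05; 0 of all 12375), 0 for tags per kb (419; 9 of all, 0.0727%) and 0 for the summit (206; 1 of all, 0.00808%). The counts at unadjusted p are given without their shares over all shared regions, and nothing is read from them. Without d22 1, 13 regions passed for length. A p above the threshold does not show that lengths were equal: the median length change was -0.072 over the 6459 regions and -0.078 over all shared regions, toward shorter calls in d22. The median summit moved by -1.17 bp in both sets, well within its spread over libraries. For this test the summit was measured along the chromosome from the lower end of the region, not along the gene. Shifts at genes of opposite strands can therefore cancel in that median. Along the gene, the median summit of a library lay 235 to 278 bp downstream of the start in d22 and 231 to 290 bp in pbs.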

How the data were processed

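H3K9ac ChIP-seq of 12 libraries (6 titled d22, 6 titled pbs) was analysed from peak tables; the 2 pooled inputs were not analysed here. Per the submitters' processing notes, CASAVA 1.8, Novoalign and MACS 1.4.2 were used, with mm10. Per the file headers, each library was called alone against its group's pooled input (12526421 tags for d22, 10409931 for pbs), with a p-value cutoff of 1e-05, a band width of 300 bp and at most 1 tag per position, and tags were 48 bp in pbs 1, pbs 4 and pbs 6 and 49 bp elsewhere. The columns read, as named in the file headers and deposited unscaled, were the count of tags per peak, a score made by MACS from the log10 of its p-value, the fold enrichment ratio, and the length and summit of the peak. The deposited false discovery rates in percent and the bed copies were not used.

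Peaks were merged and counts summed per region and library, so a count grows with the called length. Regions were fitted together, all 12375 with a peak in every library, by edgeR 4.0.16 (quasi-likelihood, robust, TMM, group only) for counts and limma 3.58.1 for log2 length, log2 tags per kb and summit (R 4.3.3), with Benjamini-Hochberg adjustment at 0.05 over all of them. Standard errors come from the F statistic. Changes are on the log2 scale. The edgeR test, and limma on log2 CPM, were also tried on counts simulated from the means and spread fitted to these data. The tests of length, tags per kb and summit were not tried in this way. Alternatives were DESeq2 1.42.0, library totals, at least 50 tags, other width, window, gap and score limits, the largest peak only, regions with 1 peak in every library, the replicate block, libraries with 49 bp tags only, and leaving out each library.

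Gene ends came from RefSeq (GRCm38.p6), and starts and upstream sequence from the RefSeq promoter table, matched by gene; 80.0% of the regions had a start there. Where a region held several starts of its gene, that nearest to the summit was used. No strand of the reads is known. The regions, the naming rule and the 44 lists of genes were chosen with earlier results of these data known, and the motifs and printed promoters after the values were seen. That rule took up to 12 regions in each direction with the largest change past adjusted p 0.05 and 1 sign on leaving out each library, the 6 with the most and 4 with the fewest tags, the 4 narrowest, 3 on each side of the width limit, the 4 smallest and 4 largest CV, and for lists with at least 5 regions that with the most tags and that with the smallest p; predicted genes were not named, and values of 3 genes that it gave are not reported here.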

Additional observations from a re-analysis of the deposited data

Results flagged for a closer look

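Within the groups of 6, a library stood far from its neighbours in 5 of 118 sets of values checked by Dixon's ratio of gap to range, and chance alone flags about 1 in 20 such sets. Library d22 4 had 44585 peaks where the nearest d22 library had 30698. The same library had 78.7 CPM at Mtss2 (nearest 21.7), 43.6 CPM at Irgm2 (nearest 19.9) and 70.2 CPM at Kif2c (nearest 31.3). Library d22 6 had 71.7 CPM at Aldh3a2, where the nearest d22 library had 50.3. The regions of Mtss2, Irgm2 and Kif2c are named because of their large coefficient of variation.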

How the results depend on the processing

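The number of regions by the rule was 6459 and ran from 5537 (width under 4000 bp) to 6770 (under 8000 bp) over the other limits, and from 6475 to 6670 on leaving out a library. Of the 37 regions called for tags, none changed sign under any alternative run on it. The count called was 87 with DESeq2, which kept all 37, 140 with library totals, which kept 30, 7 with the largest peak only (Pklr, Acaa1b, Cbfa2t3, Acot2, Depp1, Slc16a5 and Ftcd), 10 without the 3 pbs libraries of 48 bp tags, which kept 7, and 0 of 1551 with 1 peak in every library, where 102 passed unadjusted p under 0.05 by edgeR and far fewer regions were tested. Of the 37, only 1 (Chac1) had 1 peak in every library, and it was not called in that fit (edgeR adjusted p = 0.0717). The rest of the 37 were split into several peaks in some library and were not in it. Nothing is read from the 102, which are given without a share over all such regions. On leaving out each library the count called for tags was 15 (without d22 6) to 41 (without d22 4). Called length gave 2 with at least 50 tags and 0 to 13 on leaving out a library, tags per kb gave 1 with at least 50 tags, 9 with library totals and 0 to 2 on leaving out a library, and the summit 0 to 1. Apart from those stated, the causes were not tested. The replicate numbers did not pair the libraries: deviations of same-numbered libraries correlated at -0.006 to 0.1595, and only number 2 matched itself best. With the replicate block 34 regions were called for tags, 27 of the 37 among them, 0 for length and summit, and 1 for tags per kb. Depth limits the regions with few tags: the least deep library, d22 4, had a median of 64 tags per region. Counting error alone gives a coefficient of variation of 9.03% in the median region, so small changes at regions with few tags could not be detected.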
